A study of Equus caballus with 18 samples.

Results

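Vomeronasal, taste and trace amine receptors were measured in superficial gluteal muscle of horses given clenbuterol, a β2-adrenergic receptor agonist. A gene was a member if a probeset of the EquGene-1.0-st array carried its symbol alone and the symbol began with EQUCABV, VN1R, VN2R, TAS1R, TAS2R or TAAR. This rule found 39 genes of the 16661 gene symbols with a probeset of their own, and each had 1 probeset. They were 28 type 1 vomeronasal receptors (27 EQUCABV1R genes and VN1R1), 5 type 2 taste receptors (TAS2R), 2 type 1 taste receptors (TAS1R) and 4 trace amine-associated receptors (TAAR). No symbol of a type 2 vomeronasal receptor was found (0 genes). The families were selected on measured values, since they were picked after the vomeronasal receptors had been seen to be higher on day 28 of the escalating dose. The values of that comparison are therefore a description. No p-value of theirs is given, and the counts of genes past the limma threshold stand only beside the share of all probesets past it. The low dose comparison came from other horses and is given with its test.

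All horses were healthy, exercised adult Thoroughbreds, and each baseline biopsy was taken the day before the first oral dose. The escalating regimen had 4 horses (E1 to E4) with a day 28 array, at 3.2 μg/kg given 2 times a day after steps of 0.8, 1.6 and 2.4 μg/kg, and a baseline array. The low dose regimen had 5 other horses (L1 to L5) with a day 14 array, at 0.8 μg/kg given 2 times a day, and a baseline array. These 18 arrays hold no horses followed without the drug, so the drug and the time on study cannot be told apart. Values are RMA signals on the log2 scale, so a difference of 1 is a factor of 2.

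Type 1 vomeronasal receptors sense pheromones in neurons of the vomeronasal organ, where in mice they couple to the inhibitory G protein GNAI2 and open the channel TRPC2. TAS2R receptors sense bitter compounds in taste cells, whereas TAS1R1 and TAS1R3 pair to form the receptor of umami taste. Both kinds of taste receptor act through gustducin (GNAT3), the phospholipase PLCB2 and the channel TRPM5. Trace amine-associated receptors are relatives of the aminergic receptors and, with the exception of TAAR1, sense volatile amines in the olfactory epithelium. None of these receptors has an established role in the contraction of muscle fibers.

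The tissue label was checked against 10 measured genes of skeletal muscle fibers, such as actin (ACTA1), creatine kinase (CKM) and titin (TTN). Their median lay between the 99.67 and 99.87 percentile of all probesets in the 18 arrays. Their level was less even, since the median change of the 10 genes from baseline to day 14 was -1.025 in L5. It was -0.07, -0.18, -0.195 and 0.34 in L1, L2, L3 and L4. Array medians were between 4.45 and 4.5 on day 28 and between 4.06 and 4.22 at the escalating dose baseline. They were between 2.42 and 2.74 on day 14 and between 2.5 and 2.69 at the low dose baseline. Since the regimens lay on different scales, levels were compared only within a regimen, and the percentile of a probeset among all probesets of its own array was used as a second measure. Within the low dose regimen, the spread of values over an array (SD) was 1.2 to 1.41 in the 4 arrays of L4 and L5 and 1.67 to 1.75 in the 6 arrays of L1 to L3. At the escalating dose it was 1.49 to 1.53 on day 28 and 1.71 to 1.80 at baseline.

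The receptors were dim before the drug and most lay higher in the arrays of day 28. The median of the 39 genes was between 4.73 and 5.16 on day 28 of the escalating dose and between 2.93 and 3.33 at baseline. As a percentile of the array, this median was between the 57.1 and 69.1 percentile on day 28 and between 20.6 and 28.9 at baseline. By their mean percentile, 27 of 39 genes lay above the middle of the arrays on day 28, against 2 of 39 at baseline, and 6 and 0 genes lay above the 90th percentile. In the low dose horses the median of the 39 genes was between the 18.8 and 22.3 percentile on day 14 and between 19.1 and 24.2 at baseline, with 2 of 39 genes above the middle of the arrays on either day. In biopsies of whole tissue, more cells of a type and more RNA per cell cannot be told apart. Whether the higher values reflect receptor RNA at all, or the narrower spread of the day 28 arrays, was not tested.

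**Figure D1:**
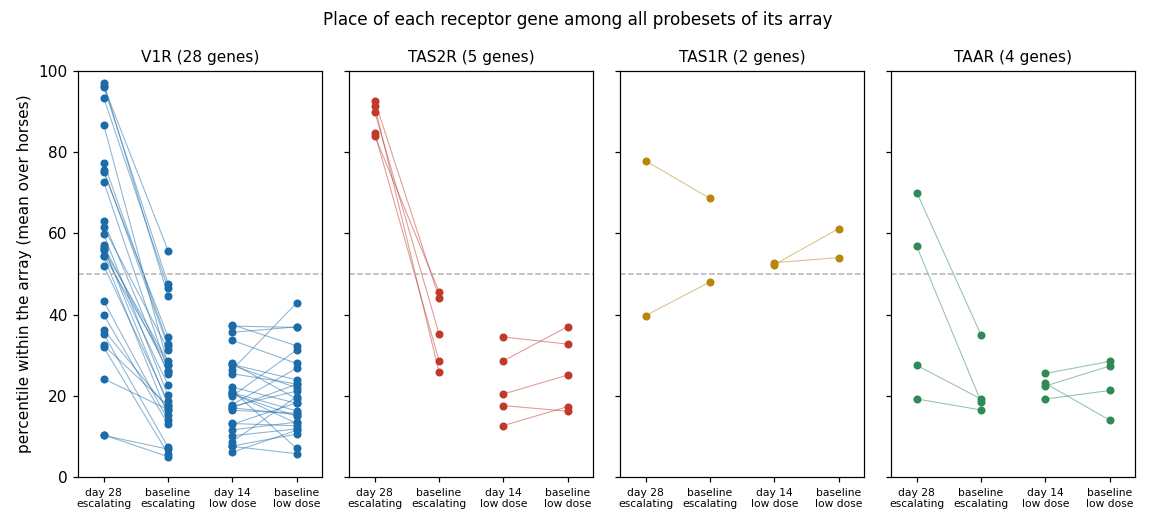
Percentile of each receptor gene among all probesets of its array (vertical axis, 0 to 100, mean over the horses of a group) for V1R, TAS2R, TAS1R and TAAR genes, with lines that join a gene's values within a regimen. On day 28 of the escalating dose 27 of 39 genes lie above the dashed middle line, against 2 of 39 at its baseline, and in the low dose regimen 2 of 39 lie above it on either day.

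On day 28 of the escalating dose the mean value of each of the 39 genes was above its baseline, by a median log2 change of 1.69 (range 0.05 to 3.83). The median over all probesets was 0.08. Limma, with horse as a block, called 35 of the 39 genes higher and 0 lower, against 24.5% of all 30559 probesets called higher and 20.2% called lower (44.7% in all). Because the genes were picked with this comparison in view, nothing is read from that count or from which genes it held. In 38 genes the value was higher in 4 of 4 horses, as in 31% of all probesets. The genes not called were TAS1R1, TAS1R3, EQUCABV1R917 and EQUCABV1R931. In 37 genes every day 28 array lay above every baseline array, as it did in 24.1% of all probesets. With each array centred on its median, 32 genes were called higher and 0 lower, and all probesets then divided into 4965 higher and 10038 lower, against 7498 and 6164 as deposited. After quantile normalization the counts were 32 and 0 for the genes and 5790 and 7321 for all probesets.

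**Figure D2:**
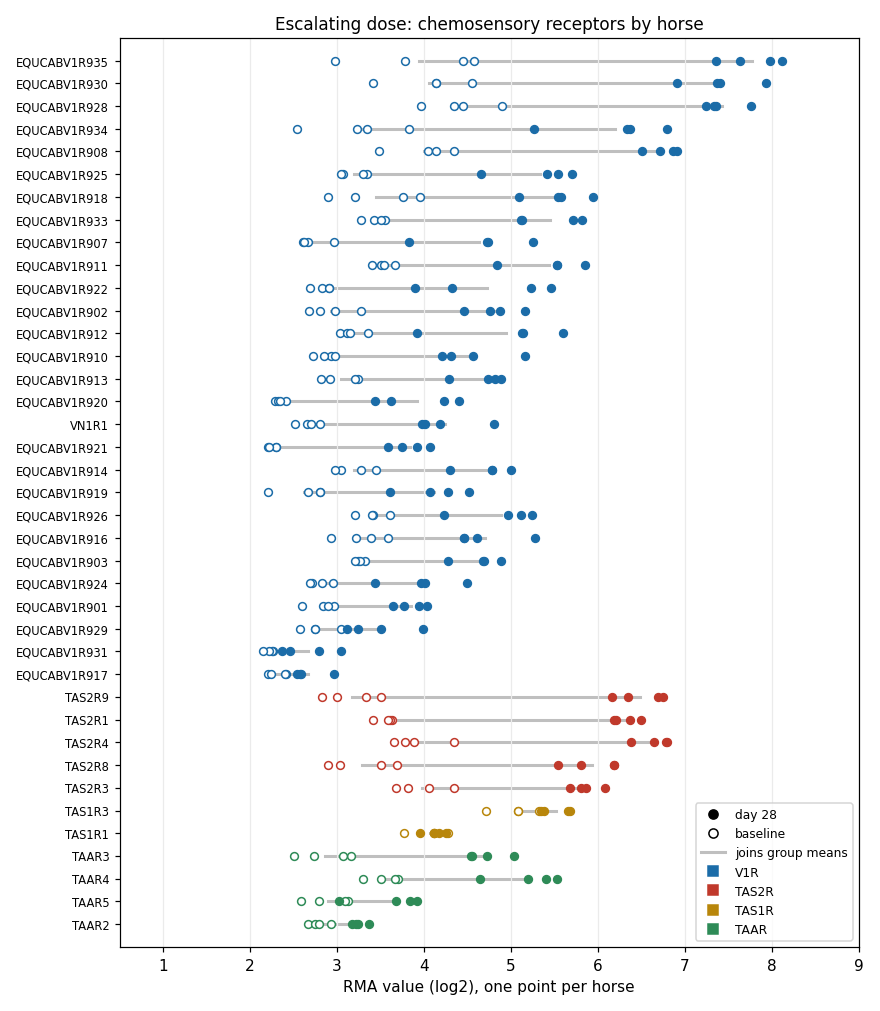
RMA value (log2, horizontal axis) of each receptor gene in the escalating dose regimen, with 1 point for each of 4 horses on day 28 (filled) and at baseline (open) and a bar that joins the group means, ordered by change within each family. In 37 of 39 rows the filled points lie to the right of all open points, and TAS1R1 and TAAR5 are the rows where they overlap.

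The vomeronasal receptors had the widest range of changes. Over the 28 genes the median log2 change on day 28 was 1.66 (range 0.35 to 3.83), 26 were called higher (24.5% of all probesets), and all 28 had groups that did not overlap (24.1% of all probesets, higher). The family median was 2.08, 1.69, 1.61 and 1.79 in E1, E2, E3 and E4. Every one of the 28 genes was higher in 4 of 4 horses. Probe sequences were not used here, so the sharing of probes between similar receptors was not tested.

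EQUCABV1R935 (Entrez gene 100053428) had the largest mean change of the 39 genes. It was at 8.12, 7.98, 7.64 and 7.36 on day 28 in E1, E2, E3 and E4, and at 4.45, 3.78, 4.57 and 2.97 at baseline. All 4 day 28 values lay more than 2 units above the highest baseline value. The mean was 7.78 ± 0.342 on day 28 and 3.94 ± 0.736 at baseline (SD, n = 4 each), a log2 change of 3.83 (SE 0.234) or 14.2-fold. At baseline E4 was the lowest of the 4 horses, and it was also the lowest on day 28.

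EQUCABV1R930 was at 7.93, 6.91, 7.37 and 7.40 on day 28 in E1 to E4, and at 4.55, 3.41, 4.14 and 4.14 at baseline. This is a log2 change of 3.34 (SE 0.137), with E1 highest and E2 lowest on both days. EQUCABV1R928 was at 7.76, 7.34, 7.24 and 7.36 on day 28 and at 4.90, 3.97, 4.45 and 4.34 at baseline, a log2 change of 3.01 (SE 0.156). It had the highest mean level of the vomeronasal receptors over the 18 arrays (3.82), and was the only one above the middle of the escalating dose baseline arrays (mean percentile 55.8, against 96.2 on day 28). EQUCABV1R930 and EQUCABV1R935 reached a mean percentile of 96 and 97 on day 28, against 47.6 and 44.6 at baseline.

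EQUCABV1R934 was at 6.80, 5.27, 6.33 and 6.37 on day 28 and at 3.83, 2.54, 3.34 and 3.23 at baseline. E2 was the lowest horse on both days, and the change within a horse (2.96, SE 0.142) was far less variable than the level. EQUCABV1R908 was at 6.91, 6.51, 6.72 and 6.86 on day 28 and at 4.35, 3.48, 4.05 and 4.14 at baseline, a log2 change of 2.75 (SE 0.147). EQUCABV1R925, sixth in the order, was at 5.42, 4.66, 5.70 and 5.54 on day 28 and at 3.34, 3.07, 3.30 and 3.05 at baseline, a log2 change of 2.14 (SE 0.187). The first 5 genes of this order lay between 2.75 and 3.83, and the sixth was at 2.14. The order was made from these same changes, so no separate group is read from the step. EQUCABV1R928 and EQUCABV1R934 (3.01 and 2.96), neighbours in this order, differed by less than either standard error.

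At the other end of the family stood EQUCABV1R917 and EQUCABV1R931. EQUCABV1R917 was at 2.54, 2.58, 2.96 and 2.57 on day 28 and at 2.41, 2.20, 2.40 and 2.24 at baseline, a log2 change of 0.35 (SE 0.143). EQUCABV1R931 was at 3.05, 2.37, 2.46 and 2.79 on day 28 and at 2.26, 2.25, 2.22 and 2.15 at baseline, a log2 change of 0.45 (SE 0.168). Both were among the dimmest of the family over the 18 arrays (means 1.86 and 1.83), and they stayed at a mean percentile of 10.2 and 10.4 on day 28, against 6.87 and 5.00 at baseline. A dim gene did not always have a small change. EQUCABV1R921, with a mean of 2.12 over the 18 arrays, was at 3.75, 3.92, 4.07 and 3.59 on day 28 and at 2.30, 2.21, 2.30 and 2.22 at baseline (log2 change 1.58, SE 0.146).

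EQUCABV1R929, EQUCABV1R901, EQUCABV1R924 and EQUCABV1R903 had log2 changes of 0.68 (SE 0.164), 1.02 (SE 0.134), 1.19 (SE 0.209) and 1.38 (SE 0.148). EQUCABV1R903 was at 4.88, 4.69, 4.68 and 4.28 on day 28 and at 3.32, 3.24, 3.26 and 3.20 at baseline, so that the horses differed more on day 28. VN1R1, whose human counterpart is expressed in the olfactory mucosa, was at 4.18, 3.98, 4.01 and 4.81 on day 28 and at 2.80, 2.65, 2.70 and 2.51 at baseline, a log2 change of 1.58 (SE 0.205). The highest day 28 value of VN1R1 thus came from E4, the horse with its lowest baseline value.

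Horses disagreed most on EQUCABV1R912 and EQUCABV1R922. EQUCABV1R912 was at 5.13, 5.60, 5.14 and 3.92 on day 28 and at 3.03, 3.11, 3.15 and 3.35 at baseline, so that E4 stood well below the other horses (log2 change 1.79, SE 0.305). EQUCABV1R922 was at 5.23, 4.32, 3.90 and 5.46 on day 28 and at 2.91, 2.82, 2.91 and 2.69 at baseline, with E4 highest and E3 lowest (1.90, SE 0.293). EQUCABV1R910 and EQUCABV1R914 had log2 changes of 1.69 (SE 0.214) and 1.53 (SE 0.198). The other 10 vomeronasal receptors had log2 changes between 1.42 and 2.08 (SE 0.154 to 0.254). Their values lay between 3.44 and 5.94 on day 28 and between 2.21 and 3.95 at baseline.

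The 5 bitter taste receptors were higher by a larger median than any other family, 2.74 (range 1.89 to 3.32). TAS2R9 (Entrez gene 100065228) was at 6.75, 6.16, 6.69 and 6.35 on day 28 in E1 to E4, and at 3.33, 2.83, 3.51 and 3.00 at baseline. The mean was 6.49 ± 0.281 on day 28 and 3.17 ± 0.309 at baseline (SD, n = 4 each), a log2 change of 3.32 (SE 0.135) or 9.99-fold. In each horse the change exceeded 3 units.

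TAS2R1 was at 6.18, 6.50, 6.37 and 6.21 on day 28 and at 3.63, 3.41, 3.61 and 3.58 at baseline, a log2 change of 2.76 (SE 0.152). TAS2R4, which in humans responds to several bitter alkaloids, was at 6.78, 6.38, 6.80 and 6.65 on day 28 and at 3.88, 3.78, 4.34 and 3.65 at baseline, a log2 change of 2.74 (SE 0.155). TAS2R8 was at 6.19, 5.54, 5.81 and 6.18 on day 28 and at 3.69, 3.51, 3.03 and 2.90 at baseline, a log2 change of 2.65 (SE 0.216). These 3 changes lay within 1 standard error of TAS2R8 of each other. TAS2R3 was at 5.86, 5.68, 6.08 and 5.81 on day 28 and at 4.06, 3.68, 4.34 and 3.81 at baseline, the smallest change of the family (1.89, SE 0.138). In all 5 genes the groups did not overlap (24.1% of all probesets, higher). Their median percentile in an array was between 87.7 and 91 on day 28 and between 34.3 and 39 at baseline.

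TAS1R1 and TAS1R3, the subunits of the umami receptor, had smaller changes than each of the bitter receptors. TAS1R1 was at 3.95, 4.12, 4.17 and 4.25 on day 28 and at 4.12, 4.12, 3.77 and 4.28 at baseline, a log2 change of 0.05 (SE 0.154). It was higher in 1 of 4 horses and lower than baseline (-0.31 to -0.27) after quantile normalization, median centring or cyclic loess. TAS1R3 was at 5.34, 5.66, 5.68 and 5.38 on day 28 and at 5.08, 5.08, 4.71 and 5.32 at baseline, a log2 change of 0.47 (SE 0.185), higher in 4 of 4 horses, and 0.50, 0.15 and 0.63 after quantile normalization, median centring and cyclic loess. Before the drug TAS1R3 was the brightest of the 39 genes (mean 5.05 ± 0.252, SD, n = 4, at the escalating dose baseline), and TAS1R1 and TAS1R3 were the members above the middle of the low dose baseline arrays (mean percentiles 54 and 61.2).

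The 4 trace amine-associated receptors fell into a pair with larger and a pair with smaller changes. TAAR3, which in mice responds to isoamylamine, was at 4.54, 4.55, 4.72 and 5.03 on day 28 and at 3.16, 2.50, 3.07 and 2.73 at baseline, a log2 change of 1.84 (SE 0.188). TAAR4, a receptor for phenylethylamine in mice, was at 4.64, 5.20, 5.40 and 5.53 on day 28 and at 3.51, 3.30, 3.70 and 3.67 at baseline, a log2 change of 1.65 (SE 0.175). In both genes the lowest day 28 value lay well above the highest baseline value.

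TAAR5, the receptor for trimethylamine in mice and humans, was at 3.84, 3.02, 3.92 and 3.68 on day 28 and at 3.13, 2.79, 2.58 and 3.09 at baseline, a log2 change of 0.72 (SE 0.2). Its groups overlapped, since E2 on day 28 lay below the baseline of E1 and of E4. TAAR2 was at 3.17, 3.24, 3.37 and 3.22 on day 28 and at 2.93, 2.67, 2.74 and 2.79 at baseline, a log2 change of 0.47 (SE 0.143). The changes of TAAR2 and TAAR5 were smaller after quantile normalization (0.14 and 0.36), median centring (0.15 and 0.40) and cyclic loess (0.21 and 0.40), as was that of EQUCABV1R929 (0.35 to 0.40).

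The order of the genes was much the same from horse to horse at the escalating dose. Over the 39 genes, the changes of any 2 of the 4 horses correlated with a Pearson coefficient of 0.796 to 0.856 (6 pairs, Spearman 0.725 to 0.818). Each gene was read on the same probeset, with its own brightness, in every horse, and all genes of a horse on the same arrays. The coefficients are thus a description. By horse, the median change of the 39 genes was 1.8, 1.73, 1.65 and 1.85 in E1, E2, E3 and E4.

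Other receptor genes on the same arrays are given as a background, and since the 39 genes were picked for this comparison no order is read from it. The 668 olfactory receptors of the nose had a median log2 change of 1.89, with 89.5% called higher. By horse, the median of the vomeronasal receptors was 2.08, 1.69, 1.61 and 1.79 and that of the olfactory receptors 2.05, 2, 1.69 and 1.95 in E1, E2, E3 and E4. Of 25 receptors for catecholamines, serotonin, histamine and acetylcholine, to which the trace amine-associated receptors are related, 8 were called higher and 0 lower (24.5% and 20.2% of all probesets), with a median of 0.34 (range -0.34 to 2.51). Of the 23625 probesets whose mean over the 8 arrays lay in the range of the 39 genes (2.44 to 5.92), 28.5% were called higher and 13.6% lower, with a median of 0.17. That mean includes day 28 and the range is wide, so these probesets were not matched to the genes in their baseline level. These differences between groups of genes were not tested.

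**Figure D3:**
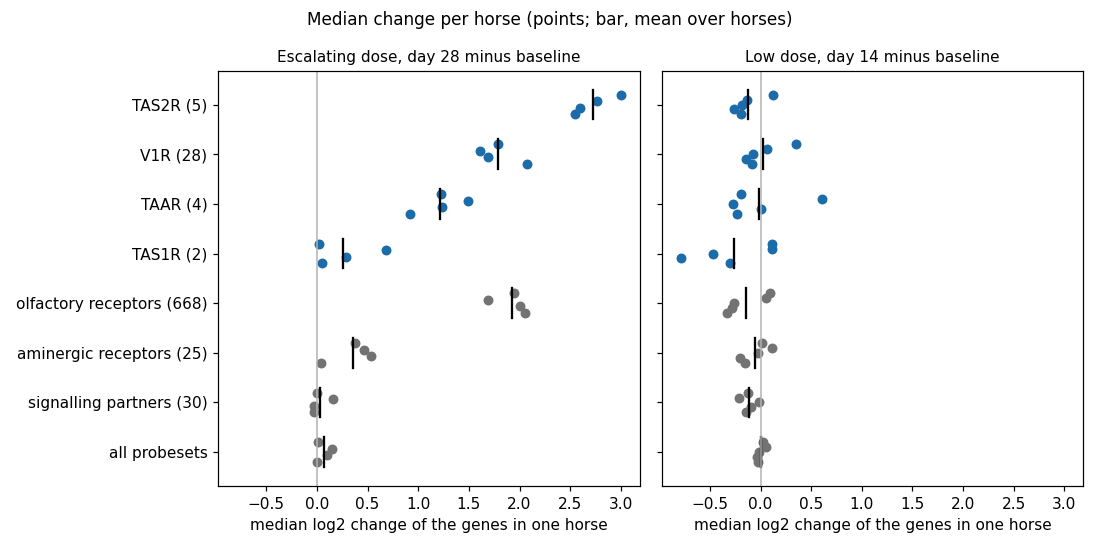
Median log2 change from baseline within a horse (horizontal axis, 1 point per horse) over the genes of each receptor family, over other gene groups and over all probesets, with a bar at the mean over horses. At the escalating dose (left, n = 4) the medians are 2.55 to 3 (TAS2R), 1.61 to 2.08 (V1R), 1.69 to 2.05 (olfactory receptors) and 0 to 0.15 (all probesets). At the low dose (right, n = 5) each receptor family has horses on both sides of 0.

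The genes that carry the signals of these receptors included some that were higher and some that were lower. Of 34 listed partners, 30 were measured, and on day 28 of the escalating dose 3 were called higher and 3 lower (background 24.5% higher and 20.2% lower), with a median log2 change of 0.08. PKD1L3, a channel protein of sour taste cells in mice, was higher by 1.20 (SE 0.219), gustducin (GNAT3) by 1.06 (SE 0.269) and the receptor chaperone RTP4 by 0.53 (SE 0.179). GNAI2, which couples to vomeronasal receptors in mice but is expressed in most tissues, was at 6.07 ± 0.272 on day 28 and 7.88 ± 0.284 at baseline (SD, n = 4 each), a log2 change of -1.82 (SE 0.171). The endoplasmic reticulum protein REEP1 was at -0.97 (SE 0.136) and the carbonic anhydrase CA4 at -0.79 (SE 0.165).

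The defining channels of the sensory cells were not called. TRPC2, of vomeronasal neurons, was at 4.17 ± 0.187 on day 28 and 4.14 ± 0.15 at baseline (SD, n = 4 each), a log2 change of 0.04 (SE 0.16). In E1 to E4 it was at 4.45, 4.06, 4.12 and 4.06 on day 28 and at 4.06, 4.06, 4.06 and 4.36 at baseline. Most of these arrays thus held the same value, and whether this probeset responds to its transcript was not tested. TRPM5, of taste cells, was at 3.71 ± 0.204 on day 28 and 3.48 ± 0.0704 at baseline, a log2 change of 0.23 (SE 0.139). Of 9 measured markers of vomeronasal and olfactory neurons, 1 was called higher (STMN2, 0.90) and 0 lower, against 24.5% and 20.2% of all probesets. The array median of the list was between 3.81 and 4.18 on day 28 and between 3.78 and 3.94 at baseline. Of 8 markers of taste cells, 2 were called higher (SNAP25, 1.20, and GNAT3) and 0 lower, against the same shares of all probesets. Their array median was between 4.14 and 4.62 on day 28 and between 3.79 and 4.18 at baseline. Whether the genes of these lists are specific to the sensory cells within muscle biopsies was not tested.

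Markers of other cells were looked at on the same arrays, where 24.5% of all probesets were called higher and 20.2% lower. Of 8 leukocyte markers 4 were called higher and 0 lower, and their array median was between 4.96 and 5.2 on day 28 and between 4.17 and 4.83 at baseline. Of 7 skin epithelium markers 3 were called higher and 1 lower (array medians 3.39 to 3.98 on day 28 and 3.4 to 3.91 at baseline). The lower one, the keratin KRT1, was at 2.62, 3.20, 2.73 and 2.91 on day 28 in E1 to E4. At baseline it was at 6.90, 3.80, 2.82 and 7.12, highest in E1 and E4. Of 3 red blood cell markers 2 were called higher (3.4 to 3.99 on day 28 and 3.06 to 3.21 at baseline). Of 10 muscle fiber genes 0 were called higher and 4 lower (11.1 to 11.2 on day 28 and 11.6 to 11.7 at baseline). The part of these cells, and of the narrower spread of the day 28 arrays, in the values of the receptors was not tested.

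On day 14 of the low dose, a common therapeutic regimen, none of the 39 genes was called by limma with horse as a block. None was called over all 30558 probesets tested either (0%). The drug and the time on study cannot be told apart here, so the comparison does not isolate the dose. By their mean percentile, 25 of the 39 genes lay under the 25th percentile of the arrays on either day. The median log2 change of the 39 genes was -0.03 (range -0.48 to 0.38), with 18 genes above and 21 below baseline, and that of all probesets was 0.01. At an unadjusted p under 0.05 there were 0 genes higher and 1 lower, against 4.37% and 4.35% of all probesets (8.72% in all). The sign of the median depended on the scaling, at 0.02 after quantile normalization or median centring. The standard errors of the 39 genes lay between 0.14 and 0.296. The other tests also called 0 of the 39 genes. At an unadjusted p under 0.05 there was 1 gene in the paired test of each probeset alone (7.52% of all probesets), 1 in the fit of all 18 arrays (11.9%) and 0 without the horse block (3.67%). With array weights there were 4 genes (16% of all probesets), and then 9 genes were above and 30 below baseline, with a median of -0.096.

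**Figure D4:**
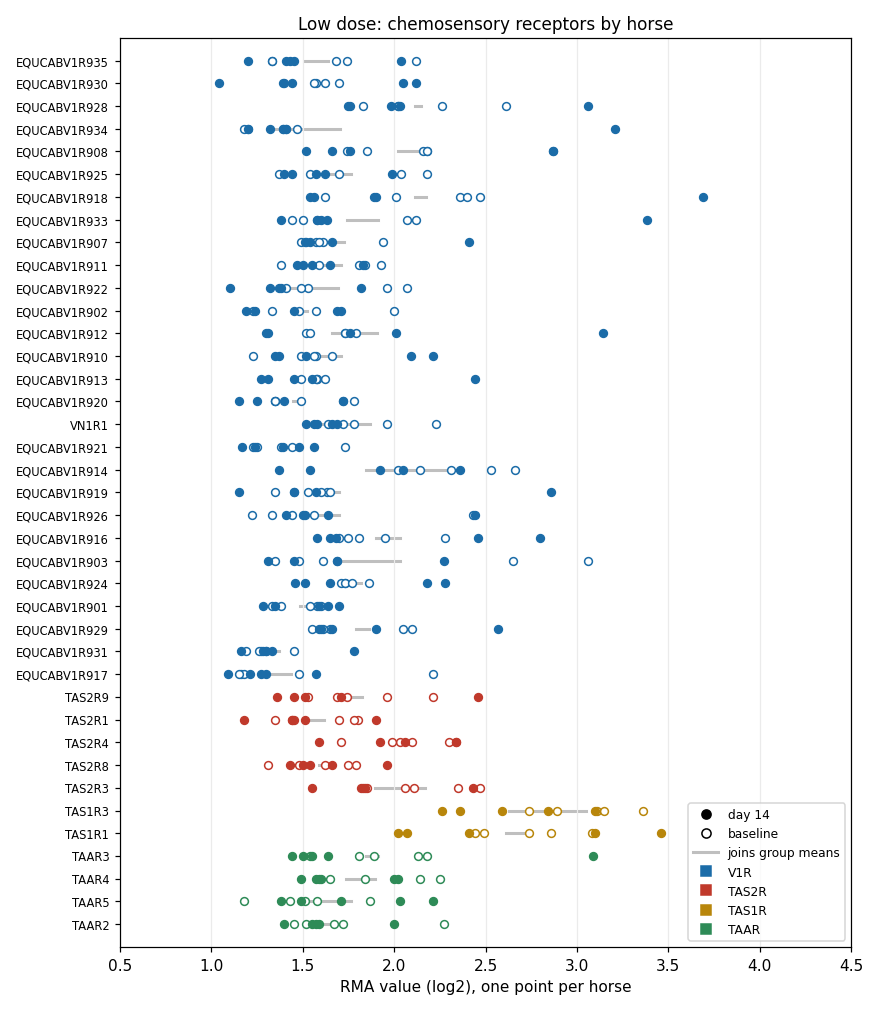
RMA value (log2, horizontal axis) of each receptor gene in the low dose regimen, with 1 point for each of 5 horses on day 14 (filled) and at baseline (open) and a bar that joins the group means, in the row order of the escalating dose plot. The groups overlap in all 39 rows, and single filled points above 3 belong to L4 or L5.

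EQUCABV1R914 had the smallest p of the 39 genes. It was at 1.37, 1.54, 1.92, 2.05 and 2.36 on day 14 in L1 to L5, and at 2.02, 2.14, 2.31, 2.53 and 2.66 at baseline. The groups overlapped, as they did in all 39 genes (0.252% of all probesets had groups that did not overlap and were higher, and 0.468% were lower), but the day 14 value was below baseline in 5 of 5 horses, with a log2 change of -0.48 (SE 0.141, limma adjusted p = 0.483). EQUCABV1R922 was at 1.32, 1.10, 1.37, 1.38 and 1.82 on day 14 and at 2.07, 1.41, 1.53, 1.49 and 1.96 at baseline, also lower in 5 of 5 horses, at -0.29 (SE 0.159, limma adjusted p = 0.625) and at -0.18 without L1. VN1R1 was lower in 4 of 5 horses, at -0.26 (SE 0.158, limma adjusted p = 0.652) and at -0.16 without L4. Over all probesets, 4.75% were lower in every horse, as were 3 of the 39 genes, the other one being TAS2R3. Higher in every horse were 4.87% of all probesets and 0 of the 39 genes.

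Among genes with a higher mean on day 14, EQUCABV1R934, EQUCABV1R910 and EQUCABV1R912 had the smallest p in the vomeronasal family. EQUCABV1R934 was at 1.41, 1.39, 1.32, 1.20 and 3.21 on day 14 in L1 to L5, and at 1.20, 1.47, 1.18, 1.39 and 1.41 at baseline (log2 change 0.38, SE 0.296, limma adjusted p = 0.743). The value of L5 alone set this mean, which was 0.02 without that horse. EQUCABV1R912 was at 1.76, 1.31, 1.30, 2.01 and 3.14 on day 14 and at 1.52, 1.73, 1.73, 1.54 and 1.79 at baseline, again with L5 highest (0.24, SE 0.275, limma adjusted p = 0.826), and it was at -0.035 without L5. EQUCABV1R910 was at 1.52, 1.37, 1.35, 2.09 and 2.21 on day 14 and at 1.23, 1.66, 1.57, 1.56 and 1.49 at baseline, with L4 and L5 highest (0.21, SE 0.197, limma adjusted p = 0.787), and it was at 0.078 without L5.

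No gene of the smaller families was called at the low dose either. TAS2R3 was at 1.83, 1.84, 1.55, 2.43 and 1.82 on day 14 and at 2.11, 2.06, 2.35, 2.47 and 1.85 at baseline, lower in 5 of 5 horses by amounts from 0.03 to 0.80 (log2 change -0.27, SE 0.168, limma adjusted p = 0.659). TAS2R9, TAS2R1, TAS2R4 and TAS2R8 had log2 changes of -0.13, -0.12, 0.02 and 0.03. TAS1R3 was at 2.84, 2.26, 2.59, 2.36 and 3.10 on day 14 and at 3.11, 3.36, 3.15, 2.74 and 2.89 at baseline, lower in 4 of 5 horses (-0.42, SE 0.204, limma adjusted p = 0.598). Among the trace amine-associated receptors, TAAR5 was at 0.25 (SE 0.192, limma adjusted p = 0.735) and the other 3 between -0.16 and -0.07.

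The horses of the low dose regimen did not move together. The median change of the 39 genes was -0.15, -0.18 and -0.10 in L1, L2 and L3 and 0.07 and 0.21 in L4 and L5, whose arrays had the smaller spread of values. The highest signed change of a gene came from L5 in 19 of the 39 genes and from L4 in 13, and from L1, L2 and L3 in 5, 0 and 2. The lowest signed change came from L1, L2, L3, L4 and L5 in 11, 8, 6, 8 and 6 genes. Without L4 and L5 the median of the 39 genes was -0.13, with 8 above and 31 below baseline, 0 called and 4 at an unadjusted p under 0.05. Over all 30559 probesets, 15 were then called higher and 163 lower (0.0491% and 0.533%), 16.4% had an unadjusted p under 0.05 and 54.1% were below baseline. Over the 39 genes, the changes of any 2 of the 5 horses correlated with a Pearson coefficient of -0.126 to 0.376 (10 pairs). The mean changes spanned only -0.48 to 0.38, with standard errors up to 0.296. These coefficients are therefore a description and are not compared with those of the escalating dose.

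Skin epithelium was the marker list with the largest differences in the low dose arrays. Of its 7 measured genes 0 were called and 6 had an unadjusted p under 0.05, with lower means on day 14 (4.35% of all probesets, lower). Its array median was between 1.87 and 2.26 on day 14 and between 2.18 and 4.62 at baseline. The differences lay mainly in L1 to L3. The keratin KRT1 was at 1.85, 2.28, 1.65, 3.15 and 2.27 on day 14 in L1 to L5, and at 8.74, 8.97, 9.26, 3.11 and 2.18 at baseline. DSG1 and KRT14 were likewise lower in L1 to L3 and slightly higher in L4 and L5. Markers of vomeronasal and olfactory neurons were between 2.13 and 2.6 on day 14 and between 2.18 and 3.06 at baseline, with 0 of 9 genes called. The part of skin, and of the lower muscle fiber values of L5 on day 14, in the values of the receptors was not tested.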

How the data were processed

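Each biopsy of superficial gluteal muscle gave 1 of the 18 EquGene-1.0-st arrays. The authors made the deposited log2 values by RMA in Affymetrix Expression Console (version not given in the sources used here), and filtered genes with Transcriptome Analysis Console 3.0, per their methods. Which arrays were normalized together is not given in the sources used here. Of 30559 probesets, 16789 carried a single gene symbol in the platform annotation, 343 several and 13427 none. One value was missing at the low dose baseline, so that regimen was tested on 30558 probesets.

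The values were analysed as deposited, in R 4.3.3 with limma 3.58.1, within each regimen. Horse was a block, because the sample titles give the same horse on both days and the methods compare each horse with itself. Tests were two-sided, p-values were adjusted over all probesets by the method of Benjamini and Hochberg, and an adjusted p under 0.05 was called. The fit was tested on simulated data. Named genes are all members of families of 12 or fewer genes, and among the vomeronasal receptors the 6 largest and 6 smallest changes at the escalating dose, the 3 highest and 3 lowest levels, and the 3 smallest p in each direction at the low dose. Alternatives were other scalings, a filter, other variances and tests, and horses left out. The members and lists were chosen with earlier results of these data known. Arrays give no counts, so the number of horses limits the precision. No sequence or position of the genes was used here.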

Additional observations from a re-analysis of the deposited data

Results flagged for a closer look

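In 172 groups of 4 or 5 arrays, 1 for each gene or family median and group, a value that stood apart from the others of its group (Dixon's test at the 95% level) was found in 15. Chance alone gives about 1 in 20 groups if they are independent. These groups share arrays, and the family medians are made of the same genes, so the 15 are not compared with that rate. Of the 15 values, 13 belonged to L4 or L5, and 10 of those to day 14.

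On day 14 of the low dose, L5 stood above the other 4 horses for EQUCABV1R918 (3.69, others 1.54 to 1.90), EQUCABV1R934 (3.21, others 1.20 to 1.41), EQUCABV1R928 (3.06, others 1.75 to 2.03), EQUCABV1R919 (2.86, others 1.15 to 1.57), EQUCABV1R926 (2.44, others 1.41 to 1.64), EQUCABV1R913 (2.44, others 1.27 to 1.55), EQUCABV1R907 (2.41, others 1.51 to 1.66) and EQUCABV1R931 (1.78, others 1.16 to 1.33). L4 stood above the other horses on day 14 for EQUCABV1R933 (3.38, others 1.38 to 1.63) and TAAR3 (3.09, others 1.44 to 1.64). At the low dose baseline, L4 was apart for EQUCABV1R926 (2.43, others 1.22 to 1.56), and L5 for EQUCABV1R907 (1.94, others 1.49 to 1.61) and for the median of the vomeronasal receptors (1.95, others 1.57 to 1.64).

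On day 28 of the escalating dose, E3 stood above the other horses for EQUCABV1R917 (2.96, others 2.54 to 2.58), and E1 for the median of the vomeronasal receptors (5.15, others 4.68 to 4.7).

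For 3 genes every horse of the low dose was lower and every horse of the escalating dose was higher than its own baseline. The mean changes at the escalating and the low dose were 1.53 and -0.48 for EQUCABV1R914, 1.90 and -0.29 for EQUCABV1R922 and 1.89 and -0.27 for TAS2R3. The difference between the regimens was not tested.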

How the results depend on the processing

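At the escalating dose the number of the 39 genes called higher was 35, and lay between 30 and 37 under the other scalings, variances, weights and tests, and 0 were called lower under all of them. The share of all probesets called higher was 24.5%, and lay between 14.8% (paired test of each probeset alone) and 25.2% (without the horse block). Without the horse block 37 of the 39 genes were called, so the pairing changed no count by over 1.5 times. Leaving out each horse in turn gave 32 to 34 genes (19.5% to 21.9% of all probesets). Since the genes were picked with this comparison in view, nothing is read from these counts. TAAR2, TAAR5 and EQUCABV1R929 were not called under the 3 other scalings, nor TAAR2 without E2, E3 or E4 (0.41 to 0.48), TAAR5 without E1, E3 or E4 (0.51 to 0.76) and EQUCABV1R929 without E1 or E4 (0.59 and 0.60). TAS1R3 was called with cyclic loess (0.63), without the block (0.47) and without E1 and E4 (0.78). EQUCABV1R931 was called without the block, with trended and robust variances and in the fit of all 18 arrays, and EQUCABV1R917 with trended and robust variances. These calls of single genes are a description too, and no support for the other genes is read from them. Keeping the brighter probesets left 15 of the 39 genes, of which 14 were called (22.6% of all probesets kept were called higher). The medians of the 8 vomeronasal receptors and of the 1 trace amine-associated receptor that remained were 2.85 and 1.65. That filter used the mean over the 8 arrays, day 28 included, whereas 2 of 39 genes lay above the middle of the arrays at baseline. Genes could thus pass through their day 28 values, so nothing is read from these counts and medians.

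Some family medians at the escalating dose moved by more than the SD between horses with the scaling, which shifted the median of all probesets from 0.08 to -0.10 (quantile), -0.24 (median centring) and -0.02 (cyclic loess). The vomeronasal median was 1.36, 1.34 and 1.31 under these, and the trace amine-associated receptor median 0.91, 0.86 and 0.88. Of these scalings, only median centring moved the TAS2R and TAS1R medians by that much (2.42 and -0.064), which were 2.83 and 0.094 (quantile) and 2.72 and 0.16 (cyclic loess), and the TAS2R median was 2.53 without E1 and E4. With single horses left out, the medians were 1.64 to 1.75 (V1R), 2.65 to 2.79 (TAS2R), 1.07 to 1.27 (TAAR) and 0.12 to 0.34 (TAS1R). TAS1R1 turned to -0.31 (quantile), -0.27 (median centring), -0.31 (cyclic loess) and -0.067 (without E3, with 0.12 as the highest value without a horse).

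At the low dose no alternative called any of the 39 genes. EQUCABV1R912 turned to -0.070 with array weights, -0.035 without L5 (0.41 at most without another horse) and -0.20 without L4 and L5, and EQUCABV1R910 to -0.073 without both. The causes were not tested. The mean over probesets of a gene gave no other value, since each gene had 1 probeset. Signals near the background of the arrays limit what the dimmest genes can show.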

Other observations

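At baseline, the order of the 39 genes within the arrays was partly shared by the horses of the regimens. The mean percentiles of the genes at the escalating dose baseline and at the low dose baseline had a Spearman coefficient of 0.582 (Pearson 0.689, 39 genes on the same probes, given as a description). TAS1R3 led both orders, with mean percentiles of 68.6 and 61.2, and EQUCABV1R931 was last in both, at 5.00 and 5.75.

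On day 14 of the low dose, 0 of 30 measured signalling partners were called by limma. At an unadjusted p under 0.05 there were 0 higher and 3 lower, against 4.37% and 4.35% of all probesets. The 3 were the taste cell transcription factor POU2F3 (-0.84), the olfactory channel subunit CNGA2 (-0.67) and the receptor transporter RTP2 (-0.53). The 668 olfactory receptors had a median change of -0.16 on the same arrays, against -0.03 for the 39 genes.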
